A study of Rattus norvegicus with 9 samples.

Results

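RNA of 10 genes of the oxygen-sensing pathway was measured in peripheral blood mononuclear cells (PBMC) of rats: the alpha subunits Hif1a and Epas1, their regulators Vhl, Hif1an, Egln1, Egln2 and Egln3, and the target genes Bhlhe40, Bnip3 and P4ha1. The members were taken by gene symbol from the deposited table of exon reads. All 10 were found among 22077 genes, each on 1 line, and all 10 were among the 12447 genes tested. The 9 libraries were from wild type Sprague-Dawley rats in 3 groups of 3. The normoxia group is labelled day 0, and the other groups were given Sugen-hypoxia and are labelled day 28 and day 56. Sugen-hypoxia joins low oxygen with Sugen, an inhibitor of the receptors for vascular endothelial growth factor, and is a rat model of pulmonary arterial hypertension. The series title names the aryl hydrocarbon receptor in that disease, and the comparison followed here is how the oxygen-sensing genes of circulating cells differed between the groups. No dose or length of hypoxia is given in the sources used here. Controls were of day 0 only, so treatment, age and elapsed time cannot be told apart.

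A hypoxia-inducible factor (HIF) is a pair of an alpha subunit and the constant partner Arnt. With oxygen, the prolyl hydroxylases encoded by the Egln genes mark the alpha subunit, the Vhl ubiquitin ligase binds the mark and the subunit is destroyed, while Hif1an hydroxylates another site, which blocks coactivator binding. When oxygen falls the alpha subunit persists as protein, binds DNA at a short core and raises its targets, which include Egln3, Bhlhe40, Bnip3 and P4ha1 in many tissues. Much of this control acts on protein, which RNA counts do not measure.

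Of the 10 members, Bhlhe40 alone passed the test, at day 56 against normoxia, where it was 4.42-fold higher and 3.42% of all genes were called higher. The promoters of the 3 targets are shown because the letters of the HIF core occur in all of them while Bhlhe40 alone of them passed the test. They were taken from RefSeq (GRCr8 build) and run from 250 bases before to 50 bases after the annotated start, 5′ to 3′ on the gene's strand. Capitals mark the 5-letter motifs ACGTG and GCGTG on either strand, where CACGTG holds ACGTG on both strands and was counted on each. The Bhlhe40 window is chr4:143174200-143174499 on the plus strand, that of Bnip3 is chr1:203154913-203155212 on the minus strand and that of P4ha1 is chr20:27844796-27845095 on the plus strand.
Bhlhe40: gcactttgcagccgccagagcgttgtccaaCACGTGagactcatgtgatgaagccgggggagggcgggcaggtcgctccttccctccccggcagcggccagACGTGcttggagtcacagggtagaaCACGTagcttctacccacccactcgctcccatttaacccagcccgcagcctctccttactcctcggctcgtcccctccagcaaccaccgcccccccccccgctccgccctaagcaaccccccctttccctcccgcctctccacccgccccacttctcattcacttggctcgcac
Bnip3: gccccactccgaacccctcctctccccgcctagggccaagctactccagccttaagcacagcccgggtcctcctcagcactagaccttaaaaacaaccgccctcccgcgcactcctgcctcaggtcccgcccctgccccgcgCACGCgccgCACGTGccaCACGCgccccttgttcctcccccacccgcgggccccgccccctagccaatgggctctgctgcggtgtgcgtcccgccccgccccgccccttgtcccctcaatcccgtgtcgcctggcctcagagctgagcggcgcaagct
P4ha1: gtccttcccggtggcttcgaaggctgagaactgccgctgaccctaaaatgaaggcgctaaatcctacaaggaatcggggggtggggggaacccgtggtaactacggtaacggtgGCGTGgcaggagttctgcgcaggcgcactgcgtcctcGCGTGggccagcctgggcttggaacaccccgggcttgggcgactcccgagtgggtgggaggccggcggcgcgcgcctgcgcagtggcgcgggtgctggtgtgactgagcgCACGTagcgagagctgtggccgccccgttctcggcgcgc
The Bhlhe40 window held 4 ACGTG matches and no GCGTG, the Bnip3 window 2 of each, and the P4ha1 window 1 ACGTG and 2 GCGTG. All 10 members matched a promoter in the table. The Hif1a window held 3 ACGTG matches and the Egln1 window 1 of each motif, while the windows of Epas1, Vhl, Hif1an, Egln2 and Egln3 held neither. At least 1 of the motifs was in 60.1% of the 10158 promoters of tested genes and in 41.6% of all 33469, so these letters are common in windows of this length. ACGTG was in 24.6% and GCGTG in 48.7% of the promoters of tested genes. A match is a description of the letters, and binding was not measured.

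The libraries held 22148400 to 39947430 exon reads each. The 5 most abundant genes, all at the globin loci, took 43.0% to 56.3% of exon reads in normoxia, 1.42% to 29.0% at day 28 and 40.5% to 44.4% at day 56. A pair of libraries stood apart from their groups. Introns held 14.6% of the reads of normoxia replicate 1, where the rest of its group had 6.60% and 5.37%, and day 28 replicate 3 had the 29.0% globin share against 1.42% and 4.83% in its group. The summed level of the 12 T cell markers was 1237 to 2133 CPM (exon reads scaled to a common library size) over the 9 libraries. Each T cell marker was detected, and the 13 erythroid markers summed to 2283 to 271900 CPM. All 10 tested monocyte markers had fitted differences above 0 at day 28 against normoxia, with a median of 1.37 on the log2 scale. Between day 56 and day 28 all 10 were below 0 (median -1.42). None passed in either comparison. Of the 8 B cell markers 8 were below 0 at day 28 and 7 at day 56 against normoxia. Their medians were -0.55 and -0.81, and only Cd79b passed, at day 56. The T cell medians were -0.04 and 0.12, and only Cd28 passed, higher at day 56. All 9 tested neutrophil markers were above 0 at day 28 (median 0.98), and only Mmp9 passed, higher at day 56. The natural killer cell medians were -0.35 and 0.56, with none passed. Of all genes 49.6% were above 0 at day 28 and 47% at day 56 against normoxia, and 48.4% between the later groups. In these comparisons 0.129%, 7.12% and 0.546% were called. The part of the marker shifts in the member values was not tested. Whether each library of a group is a different rat is not labelled, and the p-values therefore cover only the spread among the libraries at hand, which may be technical. In bulk samples fewer cells of a type and less RNA per cell cannot be told apart.

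Levels are given in CPM with TMM factors, listed for replicates 1, 2 and 3. Fold changes and adjusted p are from edgeR's quasi-likelihood test with Benjamini-Hochberg adjustment over all genes tested, called at 0.05. At day 28 against normoxia, 0 of 10 members passed, where 0.129% of all genes did. Without adjustment 2 members, Egln1 and Bhlhe40, had p under 0.05, against 28.8% of all genes, and both DESeq2 and limma-voom called 0. At day 56 against normoxia 1 of 10 passed, higher, where 3.42% of all genes were called higher and 7.12% in either direction. At day 56 against day 28, 0 of 10 passed, where 0.546% of all genes did. Without adjustment 4 members, Hif1a, Vhl, Egln3 and Bhlhe40, had p under 0.05 there, against 18.5% of all genes. DESeq2 called Egln3 and Bhlhe40 in that comparison, where it called 1057 of the 16962 genes it fitted, and limma-voom called 0. At day 28 and day 56 against normoxia DESeq2 called 1661 and 2328 of all genes, and limma-voom 50 and 832 of 12447. DESeq2 thus called more genes than edgeR in every comparison. Without adjustment 3 members, Hif1a, Vhl and Bhlhe40, had p under 0.05 at day 56 against normoxia, beside 30.9% of all genes. The fitted difference was above 0 for 7 members at day 28 and for 9 at day 56 against normoxia, and for 7 between day 56 and day 28, beside 49.6%, 47% and 48.4% of all genes. Their median log2 fold changes were 0.20, 0.46 and 0.40, against -0.01, -0.04 and -0.01 over all genes. The day 28 and day 56 comparisons share the normoxia libraries.

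**Figure D1:**
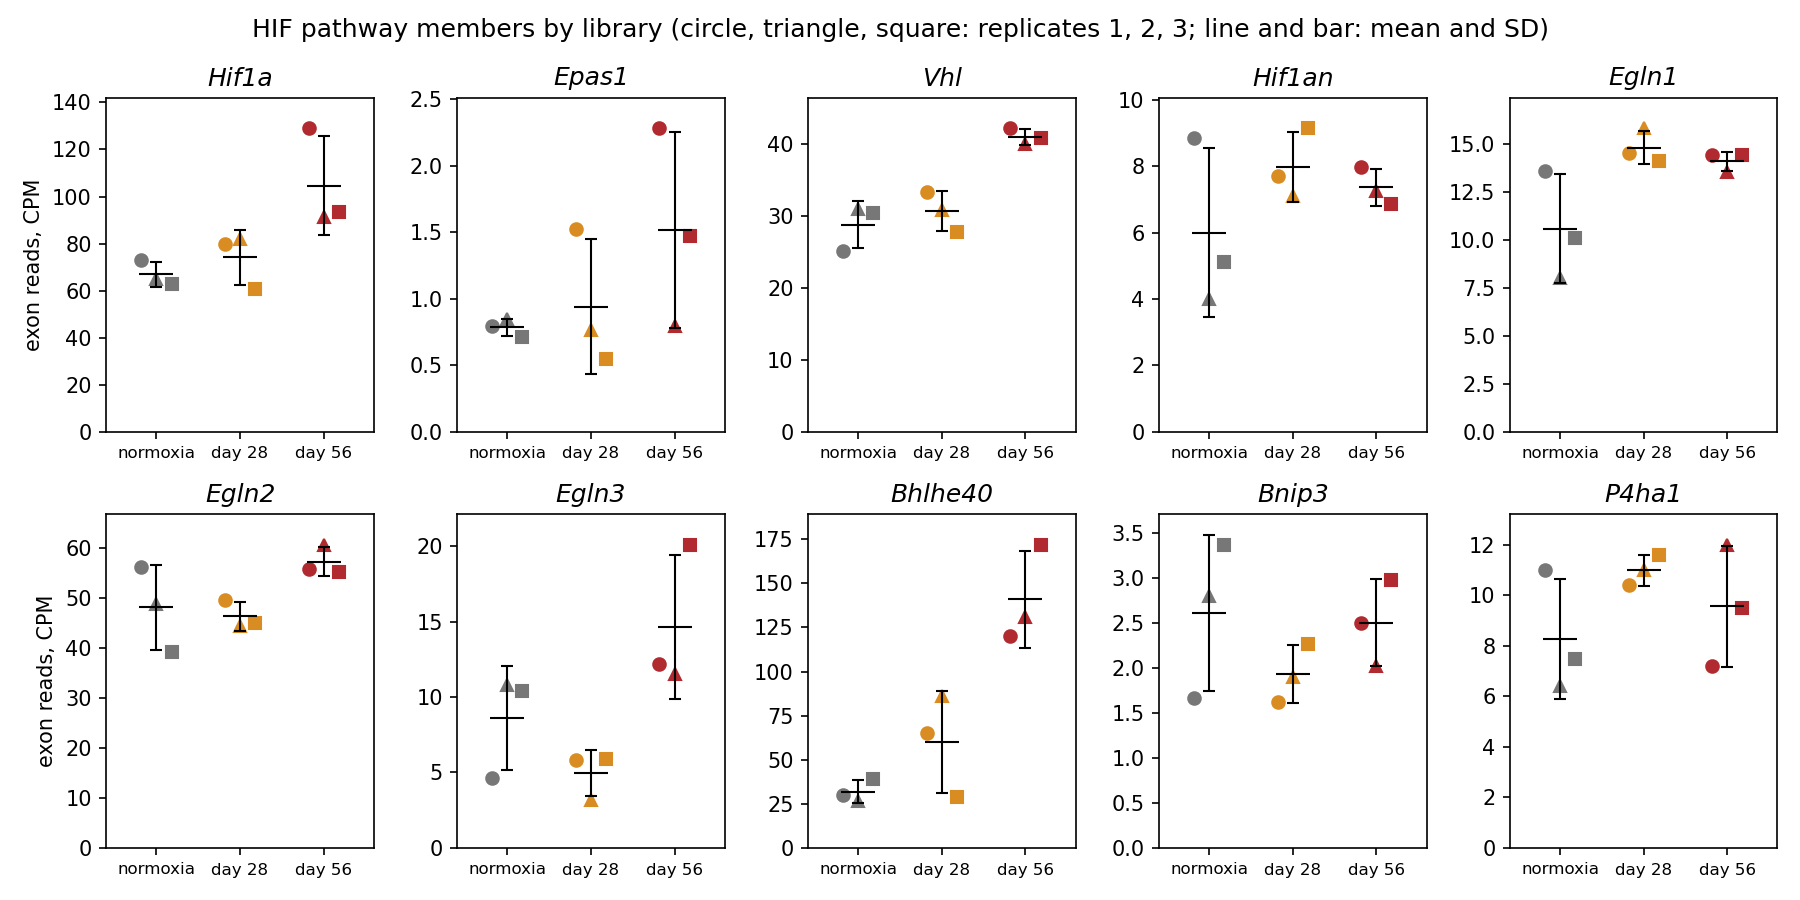
Exon reads in CPM (y axis, from 0) of each of the 10 members in the 3 groups, with 1 symbol per library and the group mean ± SD in black. The 3 day 56 points of Bhlhe40 lie at 120 to 172 CPM, above every normoxia point, and those of Vhl lie close together at 40 to 42.2 CPM.

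Hif1a, on chromosome 6 from 96810906 to 96856052 in the rn6 build, encodes the widely expressed alpha subunit. Its level was 73, 65.1 and 62.7 CPM in normoxia, 79.9, 81.8 and 60.5 CPM at day 28 and 129, 91.5 and 93.5 CPM at day 56. All 3 day 56 libraries were above every library of the other groups, while day 28 overlapped normoxia. The group means were 66.9 ± 5.40, 74.1 ± 11.8 and 104.6 ± 20.99 CPM (SD, n = 3 each). The day 56 log2 fold change against normoxia was 0.64 ± 0.19 (SE), with an adjusted p of 0.0657 by edgeR. This missed the threshold, and 5 of 25 alternatives, among them DESeq2 (0.66) and the fit without normoxia replicate 1 (0.73), put it past. Over all genes DESeq2 called 1062 of 16962 higher there, and the fit without normoxia replicate 1 called 21.8% higher. Against day 28 the log2 fold change was 0.50 ± 0.19, with an edgeR adjusted p of 0.198.

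Intron reads of Hif1a, which come mostly from RNA not yet spliced, were 21.5%, 14.5% and 14.5% of its reads in normoxia, 33.2%, 25.9% and 22% at day 28 and 36.2%, 28.9% and 29.1% at day 56. Both Sugen-hypoxia groups were above normoxia in every library, though at day 28 by as little as 22% against 21.5%. Other members showed this in 1 group, Bhlhe40 and P4ha1 at day 28 and Egln1, Egln2 and Bnip3 at day 56. Epas1, Vhl, Hif1an and Egln3 overlapped normoxia in both groups. The share of all genes with such a separation was not counted. The intron share of whole libraries moved too, at 5.37% to 14.6% in normoxia, 14.2% to 24.9% at day 28 and 11.9% to 16.9% at day 56, and its part in the Hif1a values was not tested. With intron reads added to exon reads, Hif1a passed at day 56 with a log2 fold change of 0.78.

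Epas1, on chromosome 6 from 10306404 to 10387265, encodes the alpha subunit best known from endothelium, kidney and lung. It was the scarcest member, with 53 exon reads in the 3 normoxia libraries together, 104 in those of day 28 and 124 in those of day 56. Its level was 0.791, 0.846 and 0.714 CPM in normoxia, 1.52, 0.762 and 0.544 CPM at day 28 and 2.28, 0.798 and 1.47 CPM at day 56. The groups overlapped, and replicate 1 was the highest library at both day 28 and day 56. At day 56 the log2 fold change was 0.94 ± 0.49 (SE), with an edgeR adjusted p of 0.214, and at this depth a change of that size was not separable from the spread. Of the endothelial markers, Cdh5, the endothelial cadherin, was at 0.064 to 0.336 CPM over the 9 libraries, with Tie1, an endothelial receptor kinase, at 12.1 to 27.2 CPM and Kdr, a receptor for vascular endothelial growth factor, at 3.09 to 7.9 CPM. The list of 10 genes summed to 112 to 284 CPM, mostly from Vwf, which platelets also carry. Of the 6 endothelial markers tested 3 were above 0 at day 28 and 6 at day 56, none past the threshold, with medians of 0.25 and 0.32 on the log2 scale. Their part in the Epas1 values was not tested. On the deposited per-length scale (RPKM) the Hif1a to Epas1 ratio was 105 ± 9.71 in normoxia, 111 ± 40.3 at day 28 and 96.2 ± 39.0 at day 56 (SD, n = 3 each). Hif1a was thus the main alpha subunit RNA in every library, by 64.8-fold or more.

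Vhl, on chromosome 4 from 145580798 to 145587845, encodes the substrate receptor of the ubiquitin ligase. Its level was 25.1, 31 and 30.4 CPM in normoxia, 33.3, 30.9 and 27.8 CPM at day 28 and 42.2, 40 and 40.8 CPM at day 56. The day 56 libraries were tightly grouped above all 6 others. It differed by a log2 fold change of 0.51 ± 0.14 (SE) against normoxia and 0.42 ± 0.14 against day 28, with edgeR adjusted p of 0.0603 and 0.162. At day 56 against normoxia 3 of 25 alternatives put Vhl past the threshold. DESeq2 did so (0.53), where it called 1062 of 16962 genes higher. The fit without normoxia replicate 1 did too (0.43), where 21.8% of all genes were called higher. So did the fit that also left out day 28 replicate 3 (0.43), where 23.1% were.

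Hif1an, on chromosome 1 from 264309213 to 264319267, encodes the asparaginyl hydroxylase also called FIH. It was at 8.87, 4.01 and 5.13 CPM in normoxia, 7.71, 7.11 and 9.15 CPM at day 28 and 7.98, 7.27 and 6.87 CPM at day 56. Both later groups lay above normoxia replicates 2 and 3, and replicate 1 lay among or above them. The log2 fold changes of 0.41 ± 0.28 and 0.30 ± 0.28 (SE) did not pass, with edgeR adjusted p of 0.337 and 0.502. Without normoxia replicate 1 they were 0.84 and 0.72 and passed, with edgeR adjusted p of 0.00815 and 0.0163. In that fit 23% of all genes were called higher at day 28 and 21.8% at day 56.

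None of the 3 prolyl hydroxylase genes passed in any comparison of the edgeR fit of all 9 libraries. Egln1 (chromosome 19 from 57662277 to 57699113), the main hydroxylase of HIF alpha in most tissues, was at 13.6, 7.99 and 10.1 CPM in normoxia, 14.5, 15.8 and 14.1 CPM at day 28 and 14.4, 13.5 and 14.4 CPM at day 56. Every day 28 library exceeded every normoxia library, the single member not overlapping in that comparison, where 11.4% of all genes were likewise higher. Fitted log2 fold changes were 0.49 ± 0.20 (SE) at day 28 and 0.41 ± 0.20 at day 56, with edgeR adjusted p of 0.154 and 0.193. Without normoxia replicate 1, the highest of its group, these were 0.74 and 0.66 and passed, where 23% and 21.8% of all genes were called higher.

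Egln2 (chromosome 1 from 83969456 to 83977236), a hydroxylase whose RNA is known to vary little with oxygen, was at 56.3, 48.8 and 39.3 CPM in normoxia, 49.6, 44.4 and 45 CPM at day 28 and 55.9, 60.7 and 55.3 CPM at day 56. Day 56 lay above day 28 in all libraries, and normoxia overlapped both. At day 56 its log2 fold change was 0.25 ± 0.16 (SE) with an edgeR adjusted p of 0.305. Introns held 40.8% to 64.4% of its reads over the 9 libraries, the highest share of any member, and its span overlaps that of Cyp2t1 by 104 bases.

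Egln3 (chromosome 6 from 75050328 to 75075795), the hydroxylase best known as a HIF target itself, was at 4.66, 10.8 and 10.4 CPM in normoxia, 5.82, 3.17 and 5.88 CPM at day 28 and 12.2, 11.5 and 20.1 CPM at day 56. It was lowest at day 28 and highest at day 56, with normoxia replicate 1 among the day 28 values. Its fitted log2 fold change was -0.80 ± 0.38 (SE) at day 28, 0.77 ± 0.38 at day 56 and 1.56 ± 0.38 between day 56 and day 28. None passed, with edgeR adjusted p of 0.195, 0.195 and 0.0935 in that order. Between day 56 and day 28 it passed in 4 of 24 alternatives, DESeq2 and the fit without normoxia replicate 1 (log2 fold change 1.55, adjusted p 0.0263) among them. Over all genes DESeq2 called 582 of 16962 higher there, and the fit without normoxia replicate 1 called 4.57% higher.

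Egln3 and the markers of platelets were low in the same libraries. The 12 platelet markers, of which Gp5 was at 0 in every library, summed to 820 to 3615 CPM in normoxia, 625 to 985 CPM at day 28 and 2074 to 4124 CPM at day 56. The 4 libraries with the lowest Egln3, normoxia replicate 1 and all of day 28, were also the 4 with the lowest platelet sum. This was not particular to platelet markers. The same 4 were lowest in the endothelial sum (112 to 144 CPM) and in Bnip3l, the paralogue of Bnip3 (119 to 524 CPM). The 13 erythroid markers, none at 0, summed to 112500 to 271900 CPM in normoxia, 2283 to 64530 CPM at day 28 and 105600 to 118300 CPM at day 56. By that sum normoxia replicate 1 (112500 CPM) was above day 56 replicate 1 (105600 CPM), so the 4 lowest were not the same libraries. The part of these genes in the Egln3 result was not tested.

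**Figure D2:**
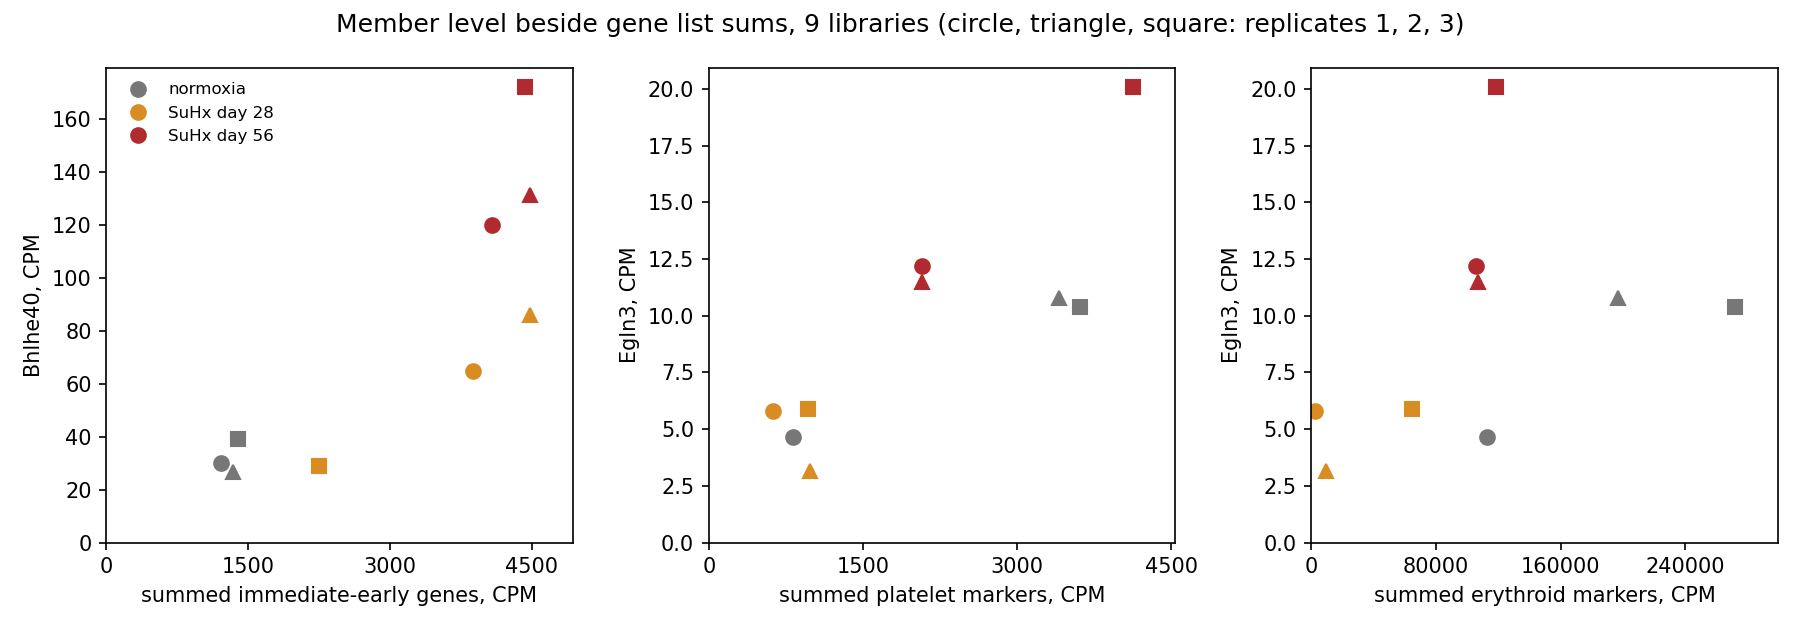
Level in CPM (y axes) of Bhlhe40 against the summed immediate-early genes, and of Egln3 against the summed platelet and erythroid markers (x axes, CPM), 1 point per library. Bhlhe40 is at 29 CPM in day 28 replicate 3, where the immediate-early sum of 2247 is the lowest of the Sugen-hypoxia libraries, and Egln3 is under 6 CPM in the 4 libraries with the lowest platelet sums (625 to 985).

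As shares of the summed RPKM of the 3 hydroxylases, a measure that no library scaling can move, Egln1 was 36.4% ± 5.95, 46.9% ± 2.90 and 38.2% ± 1.5 in normoxia, day 28 and day 56 (SD, n = 3 each). Egln2 was 56.1% ± 4.83, 49.4% ± 1.88 and 52.4% ± 3.24. Egln3 was 7.46% ± 3.61, 3.73% ± 1.17 and 9.39% ± 2.85. Day 28 thus had the highest Egln1 share in all its libraries, 44.5% to 50.1%, beside 29.6% to 40.4% elsewhere. The exon model of Egln1 in the table is short, at 669 bases, which limits its level per length.

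Bhlhe40, on chromosome 4 from 140703618 to 140709319, encodes a basic helix-loop-helix repressor also called DEC1 that is induced by hypoxia and by many other stimuli, lymphocyte activation among them. Its level was 29.9, 26.8 and 39.1 CPM in normoxia, 64.9, 85.9 and 29 CPM at day 28 and 120, 131 and 172 CPM at day 56. All day 56 libraries were above all others, while at day 28 replicates 1 and 2 were above normoxia and replicate 3 was within it. The means were 31.9 ± 6.37, 59.9 ± 28.8 and 141 ± 27.5 CPM (SD, n = 3 each). At day 56 it rose 4.42-fold against normoxia, a log2 fold change of 2.15 ± 0.36 (SE), higher in 3 of 3 libraries, with an edgeR adjusted p of 0.0147. The day 28 value of 0.91 ± 0.35 and the day 56 against day 28 value of 1.23 ± 0.35 did not pass, with edgeR adjusted p of 0.138 and 0.116.

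The day 56 call on Bhlhe40 held in 21 of 25 alternatives, with log2 fold changes of 1.98 to 2.46 and adjusted p up to 0.0997. It was lost with the intron share of each library as a covariate (2.07, adjusted p 0.0997) and without normoxia replicate 2 (2.03, 0.0673), day 56 replicate 2 (2.19, 0.0553) or day 56 replicate 3 (1.98, 0.0667). In that order these fits called 98, 93, 85 and 109 of all genes, against 886 in the fit reported. The column codes of the table fall into series, normoxia and day 56 each holding 1 library of the forties and 2 of the sixties. The day 28 libraries have the codes 68, 69 and 70, a run with no library of another group, so in every comparison with day 28 the group and that run of codes cannot be told apart. What the codes stand for is not labelled. Within the forties Bhlhe40 was 29.9 CPM in normoxia and 120 CPM at day 56, and within the sixties 26.8 and 39.1 CPM against 131 and 172 CPM. With that series as a term the log2 fold change was 2.16, with an edgeR adjusted p of 0.00345. At day 28 without replicate 3, the library with a 29.0% globin share, Bhlhe40 passed with a log2 fold change of 1.24, where 1.29% of all genes were called higher.

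The 25 immediate-early genes, which cells switch on quickly after a stimulus, moved beside Bhlhe40. At day 28 3 (Jun, Klf6 and Rhob) were called higher and none lower, where 0.129% of all genes were called in either direction. Without adjustment 18 had p under 0.05, all higher, beside 28.8% of all genes. DESeq2 called 18 higher, beside 772 of 16962 genes, and limma-voom 3. At day 56 against normoxia 19 were called higher and none lower, where 3.42% of all genes were called higher. DESeq2 called 21 higher, beside 1062 of 16962 genes, and limma-voom 18. The list was chosen with earlier results of these data known, so its counts are a description and not an independent test. The median log2 fold change was 1.66 at day 28 and 1.91 at day 56, against -0.01 and -0.04 over all genes. By size the first 6 at day 56 were the transcription factor genes Nr4a2, Fosb, Jun, Fosl2, Atf3 and Egr1, with log2 fold changes of 5.46, 4.95, 3.70, 3.50, 3.34 and 2.96. Their summed level was 1218, 1338 and 1397 CPM in normoxia, 3876, 4480 and 2247 CPM at day 28 and 4075, 4484 and 4432 CPM at day 56. Day 28 replicate 3 was the lowest Sugen-hypoxia library in both this sum and Bhlhe40. Their part in the Bhlhe40 result was not tested.

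The genes most like Bhlhe40 over the 9 libraries, among 7475 genes of at least 10 CPM on average, were Ifit1, Dusp5 and Ppp1r15a. Pearson's r of log2 CPM was 0.972, 0.970 and 0.963, and Spearman's rho 0.900, 0.867 and 0.850, given as a description over libraries that share 3 group means. Ifit1, an interferon-induced gene, was at 0.125 to 0.454 CPM in normoxia and 36.9 to 44.5 CPM at day 56. Dusp5, a phosphatase of ERK kinases, was at 31.3 to 40.6 CPM in normoxia and 110 to 134 CPM at day 56. Ppp1r15a, the stress gene also called Gadd34, was at 18.5 to 34.6 CPM in normoxia and 142 to 167 CPM at day 56.

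Bnip3 and P4ha1 passed in no comparison of the edgeR fit of all 9 libraries. Bnip3 (chromosome 1 from 211248097 to 211265282), a mitochondrial receptor for mitophagy, was at 1.67, 2.8 and 3.37 CPM in normoxia, 1.62, 1.9 and 2.27 CPM at day 28 and 2.5, 2.02 and 2.98 CPM at day 56. All groups overlapped. The log2 fold change was -0.43 ± 0.32 (SE) at day 28 and -0.05 ± 0.32 at day 56, with edgeR adjusted p of 0.37 and 0.922. P4ha1 (chromosome 20 from 28920615 to 28971966), the catalytic subunit of collagen prolyl 4-hydroxylase, was at 11, 6.4 and 7.46 CPM in normoxia, 10.4, 11 and 11.6 CPM at day 28 and 7.2, 12 and 9.48 CPM at day 56. Its groups overlapped too, with normoxia replicate 1 among the day 28 values. The log2 fold change was 0.41 ± 0.25 (SE) at day 28 and 0.21 ± 0.25 at day 56, with edgeR adjusted p of 0.288 and 0.605. Without normoxia replicate 1 P4ha1 passed at day 28 (0.70), where 23% of all genes were called higher. With library totals alone it passed there too (1.3), where 6981 of 12447 genes were called higher. The standard errors leave room for changes smaller than that of Bhlhe40, so the misses do not show equal levels.

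**Figure D3:**
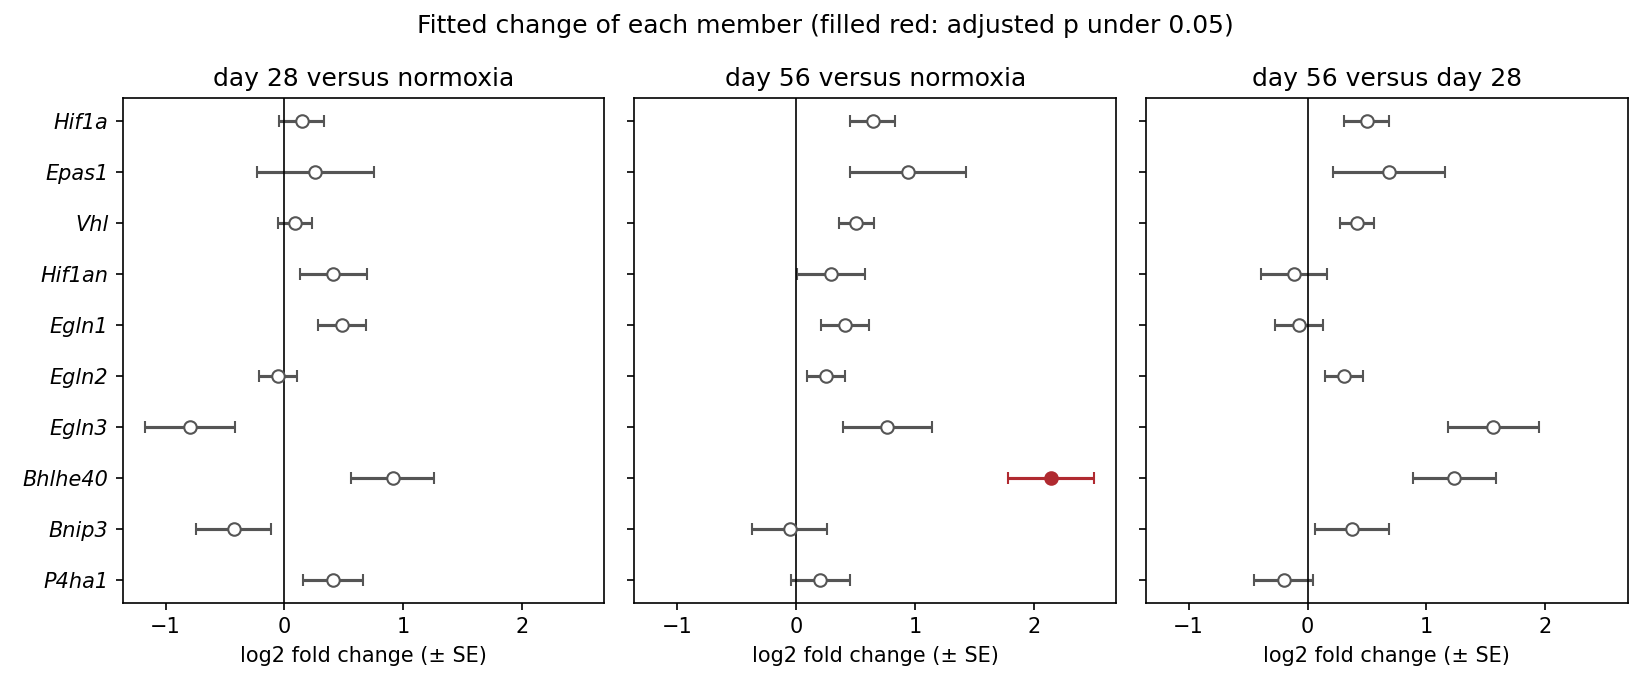
Log2 fold change ± SE (x axis) of each member in the 3 comparisons. Bhlhe40 at day 56 against normoxia (2.15) is the single filled point, and Egln3 changes side between day 28 (-0.80) and day 56 (0.77).

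Groups that did not overlap were counted for all members. At day 56 against normoxia 4 members were higher in every library (Hif1a, Vhl, Egln3 and Bhlhe40), where 15.6% of all genes were. Between day 56 and day 28 there were 5 (these and Egln2), where 17.8% of all genes were. No member was lower in every library in any comparison.

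Several calls turned on normoxia replicate 1. It was the highest normoxia library for Hif1a, Hif1an, Egln1, Egln2 and P4ha1 and the lowest for Vhl, Egln3 and Bnip3. Without it 4 members were called at day 28 (Hif1an, Egln1 and P4ha1 higher, Egln3 lower) and 6 at day 56 (Hif1a, Vhl, Hif1an, Egln1, Egln2 and Bhlhe40, all higher). The background rose as well: 23% of all genes were then called higher and 22.2% lower at day 28, and 21.8% higher at day 56. Between day 56 and day 28 Vhl and Egln3 were called higher without it, where 4.57% of all genes were. With day 28 replicate 3 left out too, 4 members were called at day 28 (Hif1an, Egln1 and Bhlhe40 higher, Egln3 lower) and the same 6 at day 56. Of all genes 24.2% were then called higher and 22.3% lower at day 28, and 23.1% higher at day 56. Between day 56 and day 28 Egln3 was called higher, where 5.42% of all genes were.

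**Figure D4:**
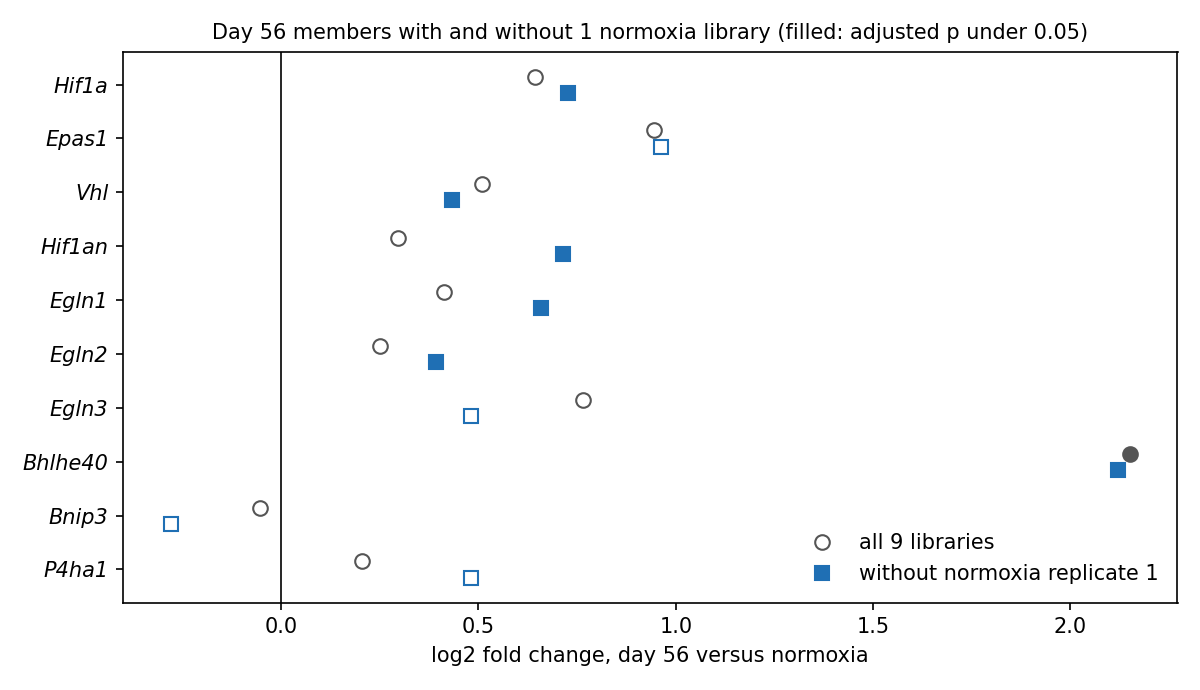
Log2 fold change at day 56 against normoxia (x axis) of each member with all 9 libraries (grey circles) and without normoxia replicate 1 (blue squares), filled where the adjusted p is under 0.05. Bhlhe40 is filled in both (2.15 and 2.12), and 5 other members are filled only without that library.

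Levels were compared between genes only per length. By mean deposited RPKM over the 9 libraries the order was Bhlhe40 26.4, Egln2 20.6, Hif1a 16.7, Egln1 16.4, Vhl 9.32, Hif1an 4.45, P4ha1 3.78, Egln3 2.49, Bnip3 1.12 and Epas1 0.179. Egln1 over Vhl, Vhl over Hif1an and Bnip3 over Epas1 were apart in each of the 3 groups. Bhlhe40 was apart from Egln2 at day 56 only and was below it in all 3 normoxia libraries. Neighbours not apart in at least 1 group were Egln2 and Hif1a, Hif1a and Egln1, Hif1an and P4ha1, P4ha1 and Egln3, and Egln3 and Bnip3. RPKM is scaled to whole libraries, in which the globin share differed. Groups were compared on it only through ratios and shares within libraries.

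**Figure D5:**
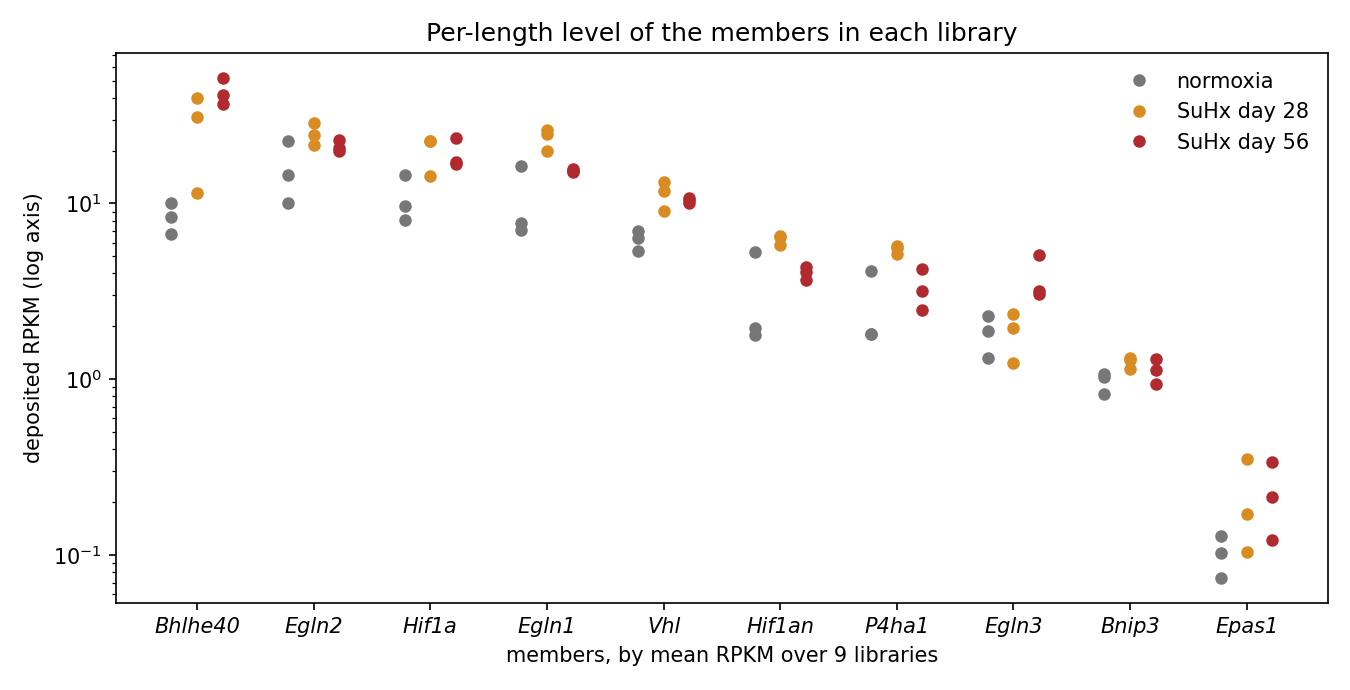
Deposited RPKM (log y axis) of the 10 members, ordered by their mean over the 9 libraries, with 1 point per library coloured by group. Epas1 lies between 0.0747 and 0.353 in every library, below every other member.

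Tests were possible for 12 of 14 other HIF regulators. None passed at day 28, where 6 had an unadjusted p under 0.05, beside 28.8% of all genes. DESeq2 called 4 there, beside 1661 of 16962 genes, and limma-voom 0. At day 56 1 passed, where 7.12% of all genes were called. DESeq2 called 2 higher and 2 lower, beside 1062 and 1266 of 16962 genes, and limma-voom 0. Eloc, an elongin that joins Vhl to the ligase, fell, with a log2 fold change of -1.25 ± 0.29 (SE) and an edgeR adjusted p of 0.0369. Its level was 18.1, 40.6 and 41.1 CPM in normoxia and 15.2, 12.5 and 14.3 CPM at day 56, and it passed in 10 of 25 alternatives. Its call was lost without any single library except normoxia replicate 1, with adjusted p of 0.0527 to 0.144. The fits that lost it in this way called 85 to 639 of all genes, against 886 in the fit reported. Arnt, the HIF beta subunit, was at 27.4, 18.3 and 19.1 CPM in normoxia, 26.8, 30.4 and 27.5 CPM at day 28 and 24.4, 26.1 and 23.9 CPM at day 56. Its log2 fold changes of 0.38 and 0.20 did not pass, with edgeR adjusted p of 0.188 and 0.477. Hif3a, a further alpha subunit, had 1 exon read in all 9 libraries together and was not tested.

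Of 43 other HIF targets 36 were tested, with none called at day 28 (unadjusted p under 0.05 for 16, beside 28.8% of all genes). DESeq2 called 6 there, beside 1661 of 16962 genes, and limma-voom 0. At day 56 4 were called higher and 1 lower, where 3.42% of all genes were called higher and 7.12% in either direction. Vegfa, the endothelial growth factor whose receptors Sugen blocks, rose from 0.541, 0.258 and 0.324 CPM in normoxia to 3.06, 4.16 and 2.01 CPM, with a log2 fold change of 3.02 and an edgeR adjusted p of 0.00985. It rests on 25 exon reads in the 3 normoxia libraries together and 241 in those of day 56. Hk2, a hexokinase, rose by 1.27, and the glucose transporters Slc2a3 and Slc2a1 by 0.95 and 0.80 on the log2 scale, with edgeR adjusted p of 0.0332, 0.0473 and 0.0257. Ankrd37, an ankyrin repeat gene known as a HIF target, fell by 1.53 on the log2 scale, with an edgeR adjusted p of 0.0481. Vegfa missed the threshold when normoxia replicate 2 was left out (adjusted p 0.0524) and when the intron share entered the model (0.0605). Those of Hk2, Slc2a3 and Slc2a1 were each lost without any one of normoxia replicates 2 and 3, day 28 replicate 1 and the 3 day 56 libraries (0.0514 to 0.155), and that of Ankrd37 without any library except normoxia replicate 1 (0.0618 to 0.182). Fewer genes were called in these fits, 98 with the intron share and 85 to 639 with those libraries left out singly, against 886 in the fit reported. The 25 alternatives kept the Vegfa call 23 times, Slc2a1 16, Hk2 and Slc2a3 15 each and Ankrd37 8. With limma-voom Ankrd37 had an adjusted p of 0.0753, and with the intron share in the model its log2 fold change was -0.79 (0.343). The glycolytic targets Ldha, Pgk1 and Pdk1 had log2 fold changes of -0.49, -0.29 and -0.42 at day 56 and did not pass. Other genes of glycolysis and its control in the list, named after their values were seen, did not pass either and lay on both sides of 0. Pfkfb3 was at 0.82 (adjusted p 0.0521), Pfkl at 0.57, Hk1 at 0.49, Aldoc at 0.47, Aldoa at 0.08, Pgam1 at 0.07, Eno1 at -0.21 and Tpi1 at -0.24 on the log2 scale. The list's median at day 56 was 0.18, against -0.04 over all genes, with 21 of 36 above 0. Between day 56 and day 28 none passed (7 without adjustment, beside 18.5% of all genes). DESeq2 called 3 there, beside 1057 of 16962 genes, and limma-voom 0.

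The families of Bnip3 and P4ha1 were compared in the same way. Bnip3l, the paralogue of Bnip3 that removes mitochondria from maturing red cells, was at 524, 813 and 1190 CPM in normoxia, 119, 163 and 411 CPM at day 28 and 641, 561 and 563 CPM at day 56. On the RPKM scale the Bnip3l to Bnip3 ratio was 161 ± 15.6, 57.3 ± 29.9 and 122 ± 23.6 (SD, n = 3 each), and day 28 was below normoxia in every library. The erythroid sums given for Egln3 were also lowest at day 28, and their part was not tested. Of 13 mitophagy genes none was called at day 28. There 10 were below 0 and 3 above, beside 49.6% of all genes above 0. An unadjusted p under 0.05 was found for 5, all lower, beside 28.8% of all genes in either direction. DESeq2 called 5 lower, beside 889 of the 16962 genes it fitted. Limma-voom called 1 lower, beside 30 of 12447. Gabarapl1 was called higher and Fundc1 lower at day 56, where 7.12% of all genes were called, with log2 fold changes of 1.29 and -1.20 and edgeR adjusted p of 0.00609 and 0.0407. Gabarapl1 held in all 25 alternatives, and Fundc1 was lost without any one of 7 libraries (0.0535 to 0.153), normoxia replicate 1 and day 28 replicate 3 being the exceptions. Those 7 fits called 85 to 567 of all genes, against 886 in the fit reported. Gabarapl1 alone was called, higher, between day 56 and day 28, where 0.546% of all genes were called. DESeq2 called 6 of the list higher, beside 582 of 16962 genes, and limma-voom 1. Of 10 collagen prolyl and lysyl hydroxylase genes 7 were tested and none passed in edgeR. At day 28 3 of them had an unadjusted p under 0.05, beside 28.8% of all genes. DESeq2 called 2 there, beside 1661 of 16962 genes, and limma-voom 0. At day 56 the counts were 1, 0 and 0, beside 30.9% of all genes without adjustment.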

How the data were processed

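RNA from 9 libraries was analysed from a deposited table of 22085 lines, of which 22077 were intact and 8 broken lines were left out. It was used through 36 columns, and 90 further columns of per-sample values were not used. Per the file headers the authors deposited exon read counts, uniquely mapped exon reads, exon plus intron reads and RPKM per gene. The deposited unique reads of 3 libraries hold a fraction on a broken line and were classed with expected counts, although they are whole on all intact lines. Build rn6 and FastQC are named in the submitters' processing notes, and the aligner is not given in the sources used here.

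Exon reads were fitted in R 4.3.3 with edgeR 4.0.16 (TMM factors, filterByExpr, robust quasi-likelihood, 3 groups, Benjamini-Hochberg at 0.05). SE is the log2 fold change over the root of F, and CPM uses TMM-scaled library sizes. The common biological coefficient of variation was 0.280. The fit was tested on simulated data. Alternatives used DESeq2 1.42.0, limma-voom 3.58.1, other scalings, filters, read types and covariates, and left out libraries. No library repeated another within sampling noise. Counting error is included in the fits. Named were all members, up to 6 genes past the threshold per pathway list and comparison by size, Arnt, Hif3a and 6 HIF targets whatever their result, totals and counts of marker lists, and 3 genes most like each called member. Members and lists were chosen with earlier results of these data known.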

Additional observations from a re-analysis of the deposited data

Results flagged for a closer look

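Gabarapl1, a gene of the LC3 family that links mitophagy receptors to the forming autophagosome, differed between the Sugen-hypoxia groups in its effect against normoxia. It was at 18.2, 25.7 and 21.7 CPM in normoxia, 24.6, 27.5 and 30.1 CPM at day 28 and 55, 47.3 and 58.6 CPM at day 56. The difference between the effects at day 56 and day 28, tested as day 56 against day 28 in edgeR, was a log2 fold change of 0.969 with an adjusted p of 0.0469. It passed in 13 of 24 alternatives, with values of 0.299 to 1.05 and adjusted p up to 0.593. It was lost without any single library except normoxia replicate 1 and day 28 replicate 3, with adjusted p of 0.0526 to 0.22, and was 0.30 with library totals alone, where the median of all genes shifted by -0.70. The single-library fits that lost it called 3 to 40 of all genes, against 68 in the fit reported. All day 56 libraries were above all day 28 libraries. No group had enough libraries for a test of single outlying values.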

How the results depend on the processing

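Counts of members past the threshold at day 28 were 7 with library totals alone, 4 with normoxia replicate 1 and day 28 replicate 3 both left out, and 0 to 4 when single libraries were left out, against 0. At day 56 against normoxia they were 3 with DESeq2, 2 with exon plus intron reads, 2 with the series of column codes as a term (chosen after seeing the data), 0 with the intron share as a covariate, 6 with both libraries left out and 0 to 6 over single libraries, against 1. Between day 56 and day 28 they were 2 with DESeq2, 1 with the fit of those groups only, 1 with both libraries left out and 0 to 2 over single libraries, against 0. With the replicate number as a block the counts were 0, 1 and 0. Whether replicate numbers pair the libraries is not labelled. Correlations of same-numbered deviations were -0.146 to 0.167, beside -0.223 to 0.264 for other pairs. With 3 libraries per group these values cannot exclude a pairing. Over all genes the counts were 16, 886 and 68 in the fit reported. They were 5732, 5453 and 1002 without normoxia replicate 1, 1661, 2328 and 1057 with DESeq2, and 223, 540 and 186 with the replicate block. With library totals alone they were 7130, 145 and 2600 of 12447 genes, so most genes were called at day 28 there. With both libraries left out they were 5875, 5790 and 1336. Over single libraries left out they were 2 to 5732, 85 to 5453 and 3 to 1002. At day 56 against normoxia they were 1138 of 13444 with exon plus intron reads and 787 of 12055 with the code series. With the intron share they were 98 of 12447 there. The fit of day 28 and day 56 alone called 590 of 12281 genes. The cause of these moves was not tested.

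Some log2 fold changes that had not passed changed sign. Adding each library's intron share to the model gave day 28 values of -0.25 for Hif1a, -0.53 for Epas1, -0.058 for Hif1an, 0.30 for Egln3, 0.44 for Bnip3, 0.53 for Ldha, 0.48 for Pgk1 and 0.069 for Pdk1. The globin share in its place gave -0.19 for Hif1a, -0.92 for Epas1, -0.083 for Vhl and -0.040 for Bhlhe40. Egln2 was 0.11 with exon plus intron reads and 0.12 with both libraries left out. Over single libraries left out, day 28 Epas1 ranged from -0.23 to 0.53, day 28 Egln2 from -0.18 to 0.10 and day 56 Bnip3 from -0.28 to 0.17. Day 56 Bnip3 was 0.015 with limma-voom, 0.061 with exon plus intron reads, 0.52 with the intron share and 0.015 with the code series. With the intron share Ldha was 0.16, Pgk1 0.23, Bnip3l 0.37 and Arnt -0.021 at day 56, and Hif1an 0.064 and Egln1 0.072 between day 56 and day 28.

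Library totals alone shifted the median of all genes by 0.96, 0.24 and -0.70 in the 3 comparisons. On that scale day 28 Egln2 was 0.88, Egln3 0.28, Bnip3 0.61, Ldha 0.62, Pgk1 0.74 and Pdk1 0.60. Day 56 Bnip3 was 0.32 and Pgk1 0.092, and between day 56 and day 28 Hif1a was -0.20, Epas1 -0.052, Vhl -0.28, Egln2 -0.38 and Bnip3 -0.29. Relative to the shift, Egln2, Egln3 and Bnip3 were -0.08, -0.68 and -0.35 at day 28. Of the members, depth limits Epas1 most, at 53 reads over the normoxia libraries.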
